A study of Mus musculus with 14 samples.

Results

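Ribosomal protein pseudogenes are copies of the genes that encode the proteins of the cytosolic ribosome. They were chosen by name, as the rows of the deposited expression table whose symbol starts with Rpl or Rps and contains -ps. Kept were the rows with 3 or more of the 14 libraries at or above 3.32, the log2 of 10. The table listed 192 of the 300 such genes that the GENCODE M21 annotation holds. Of these, 75 were kept, copied from 34 parent genes, among 11886 kept genes in all. The other 117 lay at or below 3.61 in every library and were not tested. Just inside the minimum, by the 3rd highest library, were Rpsa-ps9 at 3.50 and Rpl21-ps3 at 3.58, and just outside it were Rpl13a-ps1 at 3.31 and Rpl31-ps11 at 3.15. Rps2-ps6 passed through 3 libraries of a single group, so a difference of that group is built into its being kept.

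The RNA came from macrophages of tumours grown in the fat pad of Balb/c mice from 4T1, a line of mouse mammary carcinoma. Either 5 µM GSK269962A, an inhibitor of the ROCK kinases, or the vehicle DMSO was given to the tumour cells in culture for the 5 days that preceded the injection. No macrophage was treated directly, and all groups share the mouse strain, the tumour line and the isolation on F4/80 MicroBeads over 2 columns. The DMSO and GSK groups hold 3 libraries each from day 8 and 4 libraries each from day 14. The labels number the libraries within a group without stating separate mice, so p-values measure the spread between these samples, which may be technical. In such bulk samples, fewer cells of a type and less RNA per cell cannot be told apart.

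A mammalian ribosome holds a single copy of nearly every ribosomal protein, and the genes that encode them carry introns and are transcribed at high rates in dividing and in secreting cells, macrophages included. Their abundant, short mRNAs have often been reverse transcribed and pasted back into the genome. The resulting processed pseudogenes lack introns and usually a promoter of their own, and many keep nearly the whole coding sequence of the parent. A sequencing read from such a stretch matches parent and copy alike. RSEM, named in the submitters' processing notes, divides such a read among the matching transcripts by an estimated probability, so the value of a row is then an estimate and not a tally of reads.

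How little separates a copy from its parent is shown first for the families on which the day 14 results turn. The lines give 90 bases of coding sequence, from the GENCODE M21 transcripts of GRCm38, 5′ to 3′ on the coding strand, with capitals where a copy differs from the parent. For Rps6, whose protein is the ribosomal substrate of the S6 kinases, the window covers coding positions 208 to 297, counted from 1 at the A of the parent's start codon. In Rps6-ps4 it lies at chr2:75191526-75191615 and in Rps6-ps1 at chr15:76337823-76337912.
Rps6: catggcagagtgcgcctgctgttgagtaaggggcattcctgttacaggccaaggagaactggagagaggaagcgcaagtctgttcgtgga
Rps6-ps4: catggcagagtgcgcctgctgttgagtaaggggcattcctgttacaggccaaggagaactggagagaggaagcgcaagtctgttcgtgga
Rps6-ps1: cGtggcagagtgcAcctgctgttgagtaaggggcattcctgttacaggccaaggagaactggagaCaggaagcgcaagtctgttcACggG
Rps6-ps4 has no mismatch here or anywhere in its 750 bases, and Rps6-ps1 has 6 here. For Rps12, a protein of the small subunit, the window covers coding positions 40 to 129, at chrX:124470229-124470318 in Rps12-ps11 and chrX:125987236-125987325 in Rps12-ps16.
Rps12: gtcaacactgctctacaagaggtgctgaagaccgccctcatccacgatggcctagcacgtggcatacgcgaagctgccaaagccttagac
Rps12-ps11: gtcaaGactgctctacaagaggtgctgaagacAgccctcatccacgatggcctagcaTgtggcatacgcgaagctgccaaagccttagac
Rps12-ps16: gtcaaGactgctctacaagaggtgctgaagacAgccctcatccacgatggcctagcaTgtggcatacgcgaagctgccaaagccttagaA
Rps12-ps16 carries the 8 substitutions of Rps12-ps11 against the parent and 1 more, C129A, the last base shown. For Rpl35a, a protein of the large subunit, the window covers coding positions 145 to 234, at chr1:181242087-181242176 in Rpl35a-ps2 and chr5:33076182-33076271 in Rpl35a-ps5.
Rpl35a: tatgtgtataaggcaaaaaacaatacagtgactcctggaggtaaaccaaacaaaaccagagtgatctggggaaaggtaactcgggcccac
Rpl35a-ps2: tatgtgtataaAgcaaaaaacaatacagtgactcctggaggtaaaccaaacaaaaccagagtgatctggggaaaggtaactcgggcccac
Rpl35a-ps5: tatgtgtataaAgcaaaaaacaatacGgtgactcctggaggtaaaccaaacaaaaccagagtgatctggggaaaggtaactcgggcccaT
Rpl35a-ps2 differs from Rpl35a by G156A alone, and Rpl35a-ps5 carries that change together with A171G and C234T.

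The 75 pseudogenes are made up of 35 copies of large-subunit genes and 40 copies of small-subunit genes. Each is annotated as a single exon. The annotation types 69 as processed pseudogenes, 2 as transcribed processed pseudogenes (Rps2-ps10 and Rps26-ps1) and 4 as protein-coding (Rpl10-ps3, Rpl36a-ps1, Rpl9-ps6 and Rps12-ps3). Identity to the parent transcript over the aligned bases had a median of 99.0% and ran from 87.5% to 100% in 74 copies, of which 12 were at 100%. Rpl18-ps1, which is counted with Rpl18 by its name elsewhere, was left out of these identities, since it shares no 31-base word with Rpl18. Rpl36a-ps3, the copy at 87.5%, likewise shares no word with Rpl36a and 89.3% with Rpl36al, so the parent given by its name is not its closest coding gene. The reading frame of 51 copies runs for at least as many codons as the parent's.

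Rps12 has 16 kept copies, 11 of them on the X chromosome between chrX:123285044 and chrX:125987364. Rpl35a and Rpsa have 5 copies each, Rpl36, Rpl36a, Rps13 and Rps2 have 3 each, and 17 parents have a single kept copy. Cut into 31-base words, 48 copies hold at least 1 word that no other annotated gene has, and 27 hold none. A total of 12 copies are identical to another copy over their whole length: 5 of Rps12 (-ps11 to -ps15), 3 of Rps12 (-ps6, -ps17 and -ps18) and 4 of Rpl35a (-ps2, -ps3, -ps4 and -ps6). Rows with values within 0.1 of each other in every library leave 65 distinct profiles. Against other genes, 46 copies overlap none, 10 lie in an intron on the same strand, 16 in an intron on the opposite strand and 3 across an exon on the opposite strand (Rps12-ps4, Rps23-ps1 and Rps23-ps2). Whether the counting used strand is not given in the sources used here.

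The deposited values are on a log2 scale with no counts, so the depth of the libraries is unknown. Of the ribosomal RNA genes AY036118 and Gm42418, which overlap, the former was the higher in 9 libraries and the latter in 5 (DMSO day 8 libraries 1 and 3, GSK day 8 library 1, and DMSO day 14 libraries 2 and 4). The macrophage markers were high in every library, with Csf1r between 11.2 and 12.5 (log2) and Adgre1, which encodes F4/80, between 8.93 and 10.3. On day 14 the mean of 11 kept markers of 4T1 epithelium, of 14 listed, was 5.09 to 5.44 in the DMSO libraries and 4.79 to 4.94 in the GSK libraries, which do not overlap, with Krt18 between 6.20 and 10.7 and Epcam between 3.39 and 4.60 over all libraries. The mean of the mitochondrially encoded genes on day 14 was at most 10.1 in DMSO and at least 10.2 in GSK. These measures move with the day 14 groups, and their part in the results below was not tested.

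Most copies were listed far below their parents. Mean values over the 14 libraries ran from 3.40 to 12.7 with a median of 5.99, against a median of 12.4 for the parents. To compare levels between genes, the log2 of a length in kilobases was subtracted. That length was the exonic length for a copy and the length of the principal transcript for a parent. On this scale 9 copies lay above their parent. The widest such gap was that of Rps23-ps1, a copy of the gene for a protein of the decoding centre, at 13.0 per kilobase against 6.07 for Rps23. The others were Rpl17-ps8 (10.6 against 7.55), Rpl31-ps8 (11.9 against 10.4), Rpl10-ps3 (12.0 against 10.8), Rps23-ps2 (7.20 against 6.07), Rps2-ps13 (11.8 against 11.1), Rpl10a-ps1 (12.0 against 11.4), Rpl21-ps12 (7.91 against 7.67) and Rpsa-ps12 (12.8 against 12.7). Of these, Rpl10a-ps1, Rpl31-ps8, Rps23-ps1 and Rps23-ps2 have no word of their own. Rpsa-ps12, a copy of the gene for a small-subunit protein also known as the laminin receptor, had the highest mean value of all copies, 12.7, and 330 of its 862 words are its own. Rps13-ps2 followed at 12.4, with none of its 423 words its own. The remaining copies among the 10 highest were Rps2-ps13, Rps26-ps1, Rps13-ps1 and Rps16-ps2, with means between 10.6 and 11.6.

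The copies varied more between libraries than most genes. The highest minus the lowest of the 14 libraries had a median of 1.98 (log2) for the copies, 1.04 for their parents and 0.970 for all kept genes. It exceeded 2 for 37 of the 75 copies (49.3%), against 21.1% of 294 other kept pseudogenes and 4.67% of all kept genes. Among the 27 copies with no word of their own it exceeded 2 for 23 (85.2%), and among the 48 with at least 1 it exceeded 2 for 14 (29.2%). With rows of equal values counted once, which was added after the data were seen, it exceeded 2 for 27 of 65 copies (41.5%) and for 13 of 17 with no own word (76.5%). The plot of range against own words shows both groups.

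**Figure D1:**
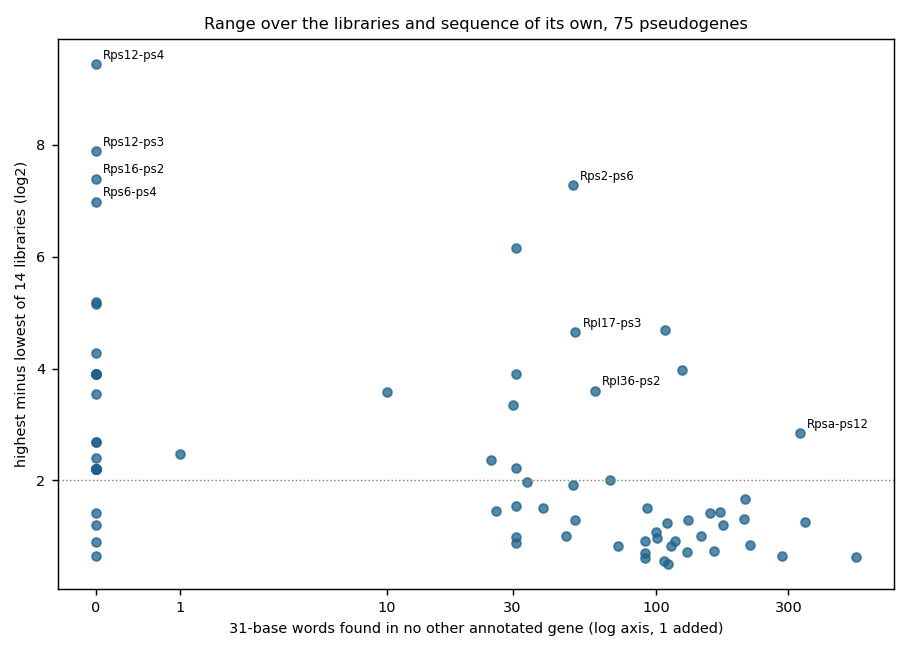
Range over the 14 libraries (log2, y axis) against the number of 31-base words found in no other annotated gene (x axis, log scale after adding 1); each point is 1 of 75 pseudogenes and the dotted line marks a range of 2. Of the 27 copies with no word of their own 23 lie above the line, as do 14 of the other 48.

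The mean of all 75 copies was 6.36 to 6.54 in the DMSO day 8 libraries and 6.45, 7.07 and 6.99 in GSK day 8 libraries 1, 2 and 3. On day 14 it was 6.84, 6.27, 6.83 and 6.65 in the DMSO libraries and 6.97 to 7.21 in the GSK libraries. The 3 DMSO day 8 libraries, GSK day 8 library 1 and DMSO day 14 library 2 were thus the lowest, and 4 of these 5 are libraries with Gm42418 high, DMSO day 8 library 2 being the exception. The part of that split in the copies' levels was not tested. The parents' mean stayed between 11.9 and 12.3 throughout.

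**Figure D2:**
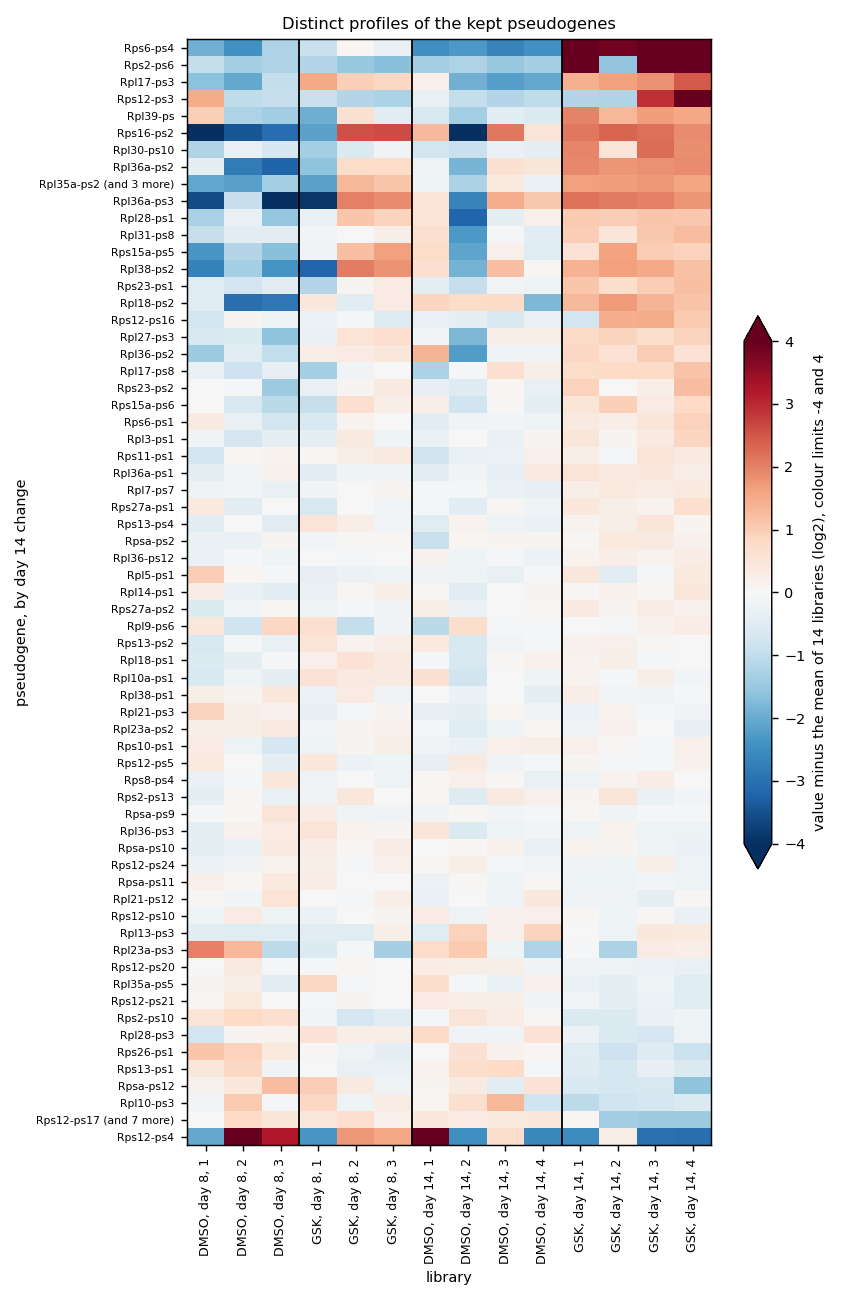
Deposited value minus the mean of 14 libraries (log2, colour) for each of the 65 distinct profiles (rows, ordered by the day 14 change) in each library (columns, grouped by pre-treatment and day). Rps6-ps4 at the top is high in all 4 GSK day 14 libraries, while Rps12-ps4 at the bottom is high in some libraries of several groups.

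The day 14 comparison asks how macrophages differed between tumours of GSK-treated and DMSO-treated cells. Rps6-ps4 rose 96.5-fold, the largest rise of any kept gene. Next came Rps2-ps6 at 4.70 on the log2 scale, which was kept through the GSK day 14 group alone. Rpl17-ps3, Rpl39-ps, Rpl30-ps10, Rpl36a-ps2, the 4 identical Rpl35a copies, Rpl31-ps8 and Rps23-ps1 followed, with rises of 3.33 down to 1.40. A group of Rps12 copies on the X chromosome fell by about 1.45 on the log2 scale while their neighbour Rps12-ps16 rose by 1.22, and Rpsa-ps12, Rps13-ps1 and Rps26-ps1 fell by 1.04, 0.92 and 0.90. Of the 75 copies, 29 passed the limma test at an adjusted p below 0.05, 16 of them higher and 13 lower. Both the 29 and the 16 include Rps2-ps6. Of all 11886 kept genes 10.8% passed, 5.1% higher and 5.73% lower. With rows of equal values counted once, a count added after the data were seen, 19 passed, 13 higher and 6 lower, and after centring each library on its median 13 were higher and 16 lower. The median change of the copies was 0.22 (log2), against 0.02 for all kept genes, and the median size of a change was 0.85 against 0.21. With equal rows counted once, the median size for the copies was 0.54. The 46 copies that did not pass had changes from -1.99 (Rps12-ps4) to 2.65 (Rps12-ps3).

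The count of copies that passed changed when single libraries were left out. The share of all kept genes was counted in the main fit alone, so whether such shifts are particular to the copies was not tested. The count of copies was 16 without DMSO library 2, 18 without GSK library 1 or GSK library 2, 17 without GSK library 3 and 14 without GSK library 4. It was 31 among the libraries with AY036118 high (2 DMSO and 4 GSK on day 14), 18 in a model with a term for that split and 16 with the mean of the 4T1 epithelium markers as a covariate.

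Parents and copies often differed in direction on day 14. Of the 34 parents, 1 was higher (Rpl39) and 8 were lower, Rpl28, Rpl35a, Rpl38, Rps16, Rps2, Rps26, Rps27a and Rpsa, and their median change was -0.14. The sign of the change was opposite to the parent's for 44 copies and the same for 31. Of the 29 copies that passed, 20 have a parent that did not pass, 4 moved the same way as a parent that passed (Rpl39-ps, Rps2-ps10, Rps26-ps1 and Rpsa-ps12), and 5 moved against one (Rps2-ps6 and the 4 identical Rpl35a copies). Rps2-ps6 was kept through the GSK day 14 group alone, so its rise is built into its being kept and says nothing on direction. These counts take every row, so the equal rows of Rps12 and those of Rpl35a in them are not separate results. The plot of the copies' change against the parents' change shows each row. Across the 14 libraries, the Pearson correlation of a copy with its parent ran from -0.88 for Rpl9-ps6 to 0.90 for Rpsa-ps12, with a median of -0.01 over the 75 copies.

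**Figure D3:**
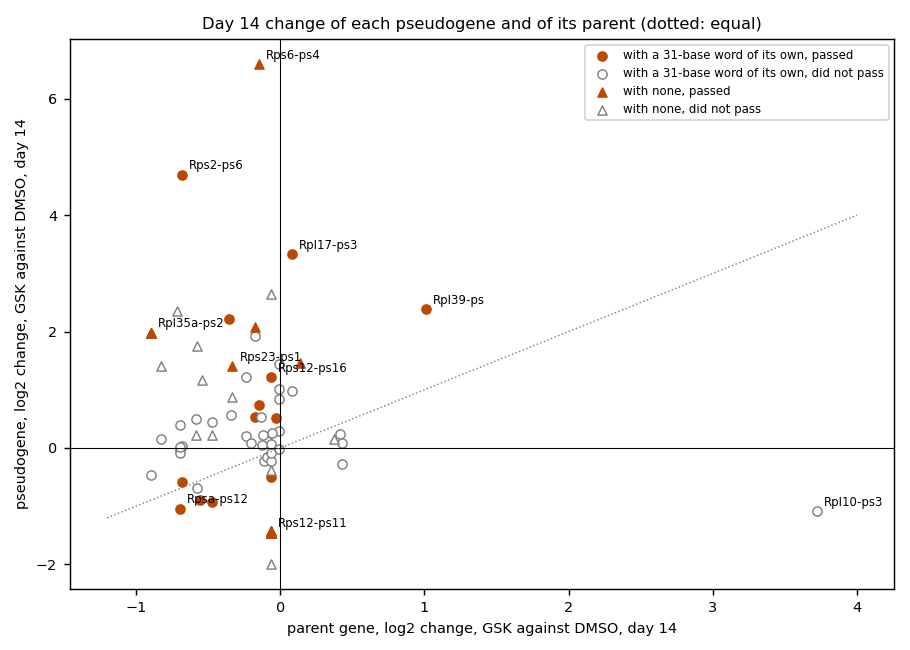
Log2 change on day 14, GSK against DMSO, of each of 75 pseudogenes (y axis) and of its parent gene (x axis); filled symbols passed the limma test and triangles have no 31-base word of their own. Rps6-ps4 lies at 6.59 with its parent at -0.15, and the Rpl35a copies lie at 1.98 with their parent at -0.90.

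Rps6-ps4 (ENSMUSG00000081406) lies at chr2:75191073-75191822, in an intron of the noncoding gene 2600014E21Rik on the opposite strand. On day 14 it was at 3.88, 4.06, 3.69 and 3.92 in the DMSO libraries and at 10.67, 10.20, 10.40 and 10.65 in the GSK libraries. The 4 GSK libraries were all above the 4 DMSO libraries, by 6.59 on the log2 scale (SE 0.24, adjusted p = 4.5e-11, limma). Its parent Rps6 was at 12.60, 12.24, 12.48 and 12.53 in DMSO and at 12.34, 12.37, 12.30 and 12.26 in GSK, a change of -0.15 that did not pass (adjusted p = 0.48, limma). All 720 words of Rps6-ps4 occur in Rps6, and none is its own. Shares of the unlogged sum were taken over Rps6 and all its listed copies, kept or not. The copies held 0.617% to 0.948% in the DMSO day 14 libraries and 18.7% to 25.4% in the GSK day 14 libraries. The family sum itself was 12.3 to 12.6 in DMSO and 12.7 in each GSK library, on the log2 scale, and did not pass (change 0.21, SE 0.12, adjusted p = 0.29, limma). Rps6-ps1, the more diverged copy, went from 4.74 ± 0.17 to 5.47 ± 0.29 (SD, n = 4 each), a rise of 0.73 that passed at an adjusted p of 0.046 in limma and was lost on leaving out DMSO day 8 library 2, GSK day 8 library 2 or 3 or any day 14 library. It was named after its values were seen.

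**Figure D4:**
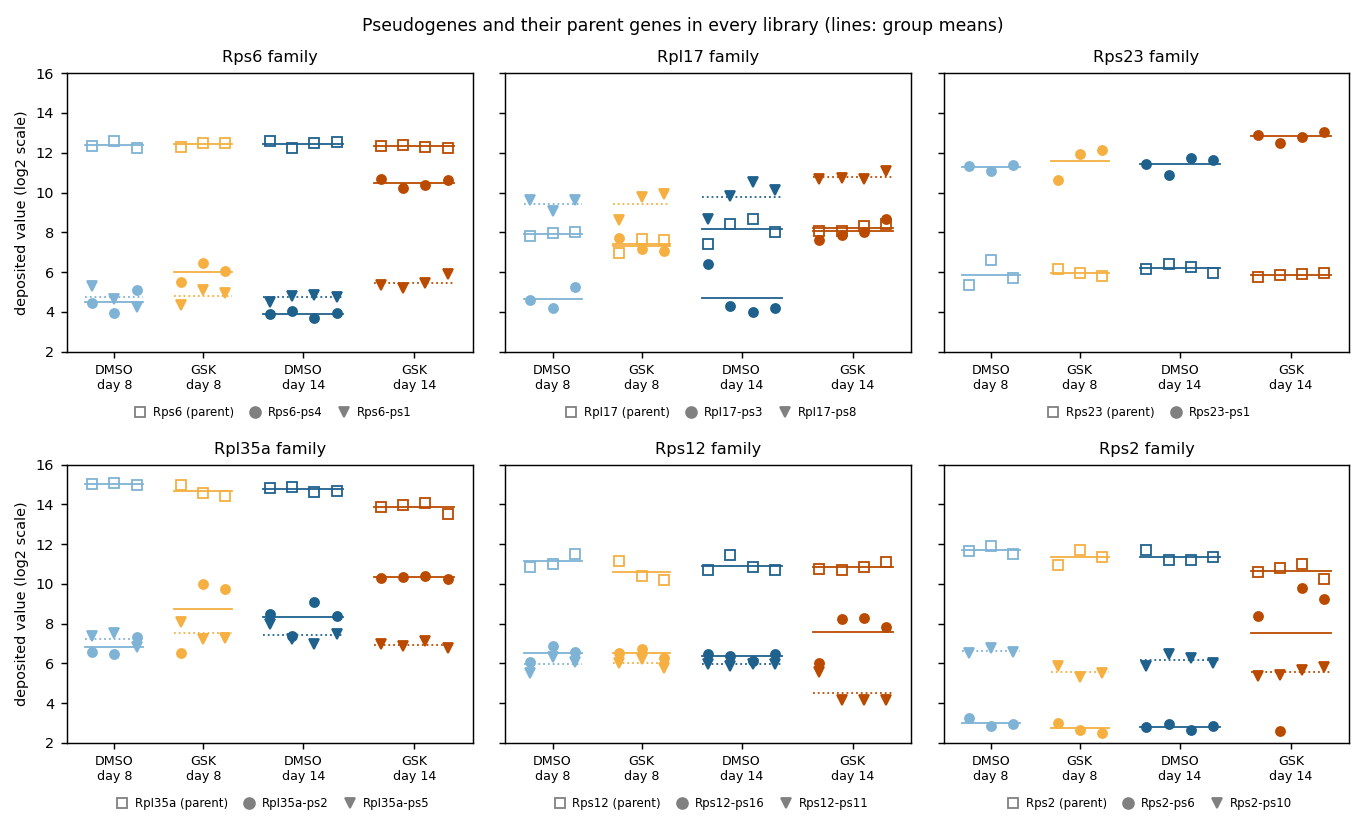
Deposited log2 values (y axis) in each library of 6 families, grouped by pre-treatment and day; open squares are the parent gene, filled symbols are pseudogenes and lines are group means. Rps6-ps4 lies between 10.2 and 10.7 in the 4 GSK day 14 libraries and between 3.69 and 6.44 in the other 10, while Rps6 lies between 12.2 and 12.6 in all 14.

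Among the near-identical Rps12 copies of the X chromosome, 1 rose and its neighbours fell. Rps12-ps16 was at 6.48, 6.39, 6.12 and 6.48 in the DMSO day 14 libraries and at 6.04, 8.23, 8.26 and 7.81 in the GSK day 14 libraries. Rps12-ps11, whose sequence 4 other copies share base for base, was at 5.98, 5.88, 5.96 and 5.97 in DMSO and at 5.54, 4.17, 4.14 and 4.13 in GSK. GSK libraries 2, 3 and 4 thus had Rps12-ps16 high and Rps12-ps11 low, while GSK library 1 lay nearer to the DMSO libraries in both. The fall of Rps12-ps11 was -1.45 (SE 0.27, adjusted p = 0.0063, limma), and that of Rps12-ps17, which stands for 3 identical copies, was -1.43 (SE 0.28, adjusted p = 0.0076). The rise of Rps12-ps16, 1.22 (SE 0.36, adjusted p = 0.042, limma), overlapped between groups and was lost on leaving out any of 9 libraries: DMSO day 8 library 3, GSK day 8 library 2, any DMSO day 14 library or GSK day 14 libraries 2, 3 or 4.

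The division of the cluster's values differed between libraries. Over the 9 copies from Rps12-ps6 to Rps12-ps16 along the X chromosome, Rps12-ps16 held 12.3% to 15.3% of the unlogged sum in the other 11 libraries and 67.7%, 68.4% and 61.5% in GSK day 14 libraries 2, 3 and 4. Their sum was 9.12 to 9.21 in the DMSO day 14 libraries and 8.80, 8.80, 8.81 and 8.51 in the GSK day 14 libraries, on the log2 scale, so the GSK libraries were also lower in sum. Rps12-ps16 has 31 words of its own, and the 8 other copies have none. Rps12-ps21, elsewhere on the chromosome, fell by 0.49 (adjusted p = 0.045, limma), a call that was lost without GSK day 8 library 2 or 3, DMSO day 14 library 1, 2 or 3 or any GSK day 14 library. Rps12-ps20, which also lies outside the 9 copies, changed by -0.38 (adjusted p = 0.090, limma). The parent Rps12 changed by -0.06 (adjusted p = 0.89).

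The Rpl35a copies rose as the parent fell. Rpl35a-ps2, with 3 copies of the same sequence and the same values, was at 8.50, 7.38, 9.07 and 8.39 in the DMSO day 14 libraries and at 10.31, 10.33, 10.39 and 10.25 in the GSK day 14 libraries. Rpl35a was at 14.81, 14.89, 14.62 and 14.68 in DMSO and at 13.86, 13.99, 14.05 and 13.50 in GSK. Neither overlapped between the groups. The copy rose by 1.98 (SE 0.55, adjusted p = 0.032, limma) and the parent fell by 0.90 (SE 0.16, adjusted p = 0.0055). The call of the copy was lost without DMSO library 1, 2 or 4 or any GSK day 14 library, at adjusted p-values of 0.0547 to 0.106. The copies held 2.63% to 8.31% of the family's unlogged sum in DMSO and 24.5% to 30.1% in GSK, while the sum fell by 0.54 (SE 0.14, adjusted p = 0.024, limma). Rpl35a-ps5, which has 51 words of its own, changed by -0.47 and did not pass (adjusted p = 0.19, limma).

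In other families the copies did not follow the groups alone. Rps16-ps2, identical over its 441 bases to the gene for the small-subunit protein Rps16, was at 11.93, 5.84, 12.74 and 11.14 in the DMSO day 14 libraries and at 12.74, 12.96, 12.84 and 12.52 in the GSK day 14 libraries. It was at 6.43, 7.20 and 7.58 in the DMSO day 8 libraries and at 8.49, 13.17 and 13.24 in the GSK day 8 libraries. DMSO day 14 library 2 and GSK day 8 library 1 thus lay with the DMSO day 8 libraries. Its day 14 change of 2.35 did not pass (adjusted p = 0.21, limma), and neither did its day 8 change of 4.56 (adjusted p = 0.12). The copies' share of the Rps16 family was 0.174% to 0.688% in those 5 libraries and 6.86% to 29.2% in the other 9.

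The same 5 libraries had the lowest shares in the Rpl36a, Rpl38 and Rpl35a families. Rpl36a encodes a protein of the large subunit, and Rpl38 a large-subunit protein whose loss in mice disturbs the body plan. Copies held 2.02% to 8.32% of the Rpl36a family in these libraries and 25.6% to 57.2% in the others. Rpl36a-ps3, whose words match Rpl36al and not Rpl36a, is counted with that family by its name. It was at 5.80, 8.46 and 5.39 in the DMSO and at 5.48, 11.39 and 11.27 in the GSK libraries of day 8. On day 14 it was at 9.94, 6.71, 10.82 and 10.44 in DMSO and at 11.55, 11.46, 11.41 and 11.15 in GSK, with no overlap, and its change of 1.92 did not pass (adjusted p = 0.28, limma). In the Rpl38 family the shares were 0.646% to 1.71% and 5.46% to 24.8%. Rpl36a-ps2, with no word of its own, rose on day 14 from 8.12, 6.40, 8.88 and 8.75 in DMSO to 10.20, 10.04, 10.10 and 10.15 in GSK, with no overlap, by 2.09 (SE 0.63, adjusted p = 0.043, limma). That call was lost without DMSO library 1, 2 or 4 or any GSK day 14 library. Rpl36a-ps1 rose by 0.54 (adjusted p = 0.045), with overlap between the groups, and was lost without DMSO day 8 library 2, GSK day 8 library 2 or 3, DMSO day 14 library 1, 2 or 3 or any GSK day 14 library. It lay near the minimum, at a mean of 3.76.

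**Figure D5:**
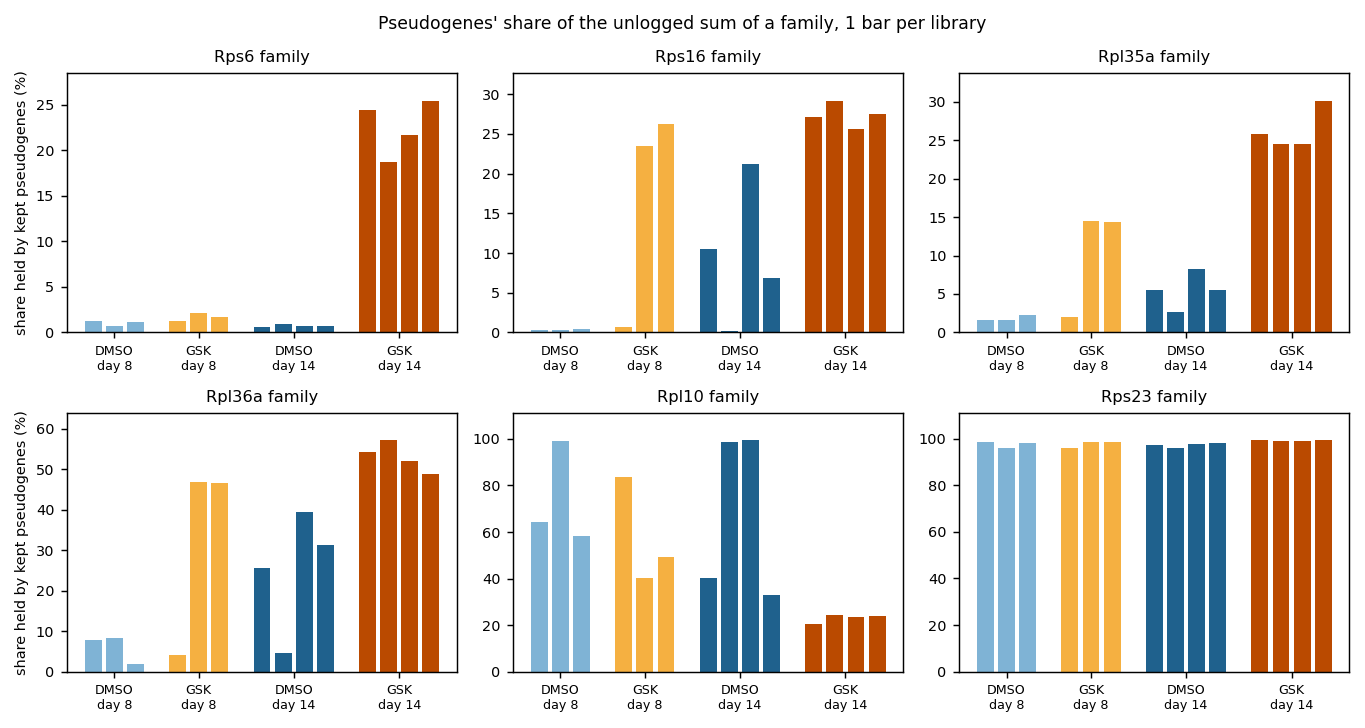
Share of the unlogged family sum, parent and all listed copies together, that the copies held (%, y axis from 0, scale set per family), 1 bar per library, grouped by pre-treatment and day. The axis names kept pseudogenes, but listed copies that were not kept are included. In the Rps6 family the 4 GSK day 14 libraries lie between 18.7% and 25.4% and the other 10 between 0.617% and 2.08%, while in the Rps23 family all 14 lie above 95%.

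Rpl17-ps3 was the other copy, besides Rps6-ps4, that passed with GSK higher on both days. Rpl17 encodes a protein that lines the exit tunnel of the large subunit. On day 14 Rpl17-ps3 was at 6.41, 4.28, 4.00 and 4.17 in DMSO and at 7.63, 7.86, 8.03 and 8.65 in GSK. DMSO library 1 stood above the other 3, and all 4 GSK libraries were higher still. The rise of 3.33 (SE 0.42, adjusted p = 0.0012, limma) held on leaving out any library, at 3.09 to 3.89. Rpl17-ps3 has 51 of its 526 words to itself. The other copy, Rpl17-ps8, with a single own word, changed by 0.99 (adjusted p = 0.068), and the parent by 0.08 (adjusted p = 0.86).

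Rps2-ps6, a copy of the gene for a protein at the mRNA entry of the small subunit, was at 2.81, 2.95, 2.66 and 2.84 in the DMSO day 14 libraries and at 8.40, 2.61, 9.79 and 9.26 in the GSK day 14 libraries. GSK library 2 lay with the DMSO libraries, and so did all 6 day 8 libraries, at 2.51 to 3.23. Its change of 4.70 (SE 1.02, adjusted p = 0.013, limma) is a description of 3 libraries, since those libraries alone let it pass the minimum, and without GSK library 4 the adjusted p was 0.061. It has 50 own words of 825. In the same family Rps2-ps10 fell by 0.59 (SE 0.17, adjusted p = 0.036), a call lost without DMSO library 2, 3 or 4 or any GSK day 14 library, while Rps2-ps13 changed by 0.03 (adjusted p = 0.95).

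Further copies rose beside parents that did not fall past the threshold. Rps23-ps1 was at 11.42, 10.89, 11.72 and 11.62 in DMSO and at 12.91, 12.52, 12.81 and 13.03 in GSK on day 14, with no overlap, a rise of 1.40 (SE 0.26, adjusted p = 0.0070, limma) that held on leaving out any library. It overlaps an exon of Gm5148 on the opposite strand, and its parent Rps23 stayed at 5.75 to 6.38. Rpl39-ps was at 5.84, 5.12, 6.06 and 5.92 in DMSO and at 8.46, 7.81, 8.17 and 8.03 in GSK. It rose by 2.38 (SE 0.49, adjusted p = 0.010, limma), and its parent Rpl39, whose small protein sits in the exit tunnel, rose by 1.01 (SE 0.25, adjusted p = 0.023). Rpl30-ps10, which differs from Rpl30 by G10T, C20T and G96A, was at 4.69, 4.57, 5.18 and 5.06 in DMSO and at 7.41, 5.97, 7.68 and 7.32 in GSK. All 4 GSK libraries were higher, with library 2 the lowest of them, and the rise was 2.22 (SE 0.33, adjusted p = 0.0025, limma) beside -0.35 for Rpl30 (adjusted p = 0.081).

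Rpl31-ps8, a copy of the gene for a protein near the end of the exit tunnel, was at 11.19, 8.23, 10.51 and 10.12 in DMSO and at 11.52, 11.01, 11.62 and 11.77 in GSK, and the groups overlapped. Its rise of 1.47 (SE 0.42, adjusted p = 0.036, limma) was 0.87 without DMSO library 2 (adjusted p = 0.0545), and the call was also lost without DMSO library 4 or GSK library 1, 3 or 4. Among the libraries with AY036118 high it was 0.63 (adjusted p = 0.10). Outside the rule for named genes, Rpl7-ps7 also rose, by 0.52 (adjusted p = 0.014, limma), and it was named here so that every call is accounted for. Without GSK library 4 its adjusted p was 0.058.

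Rpsa-ps12, Rps26-ps1 and Rps13-ps1, which are among the 10 highest copies and have words of their own, fell. Rpsa-ps12 was at 12.78, 13.01, 12.24 and 13.23 in DMSO and at 12.05, 11.97, 12.03 and 11.05 in GSK on day 14. The groups did not overlap, though GSK library 4 stood below the other 3. It fell by 1.04 (SE 0.30, adjusted p = 0.037, limma), a call lost without DMSO library 1, 2 or 4 or any GSK day 14 library, and its parent Rpsa by 0.70 (SE 0.18, adjusted p = 0.024). The other 4 Rpsa copies lay at means of 3.41 to 5.47 and did not pass. Rps26-ps1, a copy of the gene for a protein at the mRNA exit of the small subunit, was at 11.65, 12.23, 11.80 and 11.70 in DMSO and at 11.14, 10.79, 11.10 and 10.76 in GSK. It fell by 0.90 (SE 0.18, adjusted p = 0.0083, limma) with its parent Rps26 at -0.56 (adjusted p = 0.037), and the call held on leaving out any library. Rps26-ps1 lies in an intron of Wwp2 on the opposite strand, and Wwp2 changed by -0.52 (adjusted p = 0.048, limma). Over 15 pairs of a copy and a kept gene in whose intron it lies, the Pearson correlation across the 14 libraries ran from -0.90 to 0.82, the highest being that of Rps26-ps1 and Wwp2. The lowest was that of Rpl35a-ps3 and Rab44 on the opposite strand, where Rab44 changed by -0.86 (adjusted p = 0.018, limma) as the copy rose by 1.98. Rpl35a-ps3 has the sequence and the values of Rpl35a-ps2, -ps4 and -ps6, so its values cannot be assigned to this locus. Abr, around Rpl36-ps2 on the opposite strand, was the remaining host that passed on day 14, at 0.75 (adjusted p = 0.037, limma), while Rpl36-ps2 did not pass (1.02, adjusted p = 0.18).

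Rps13-ps1 fell by 0.92 (SE 0.21, adjusted p = 0.015, limma), from 10.92, 11.48, 11.56 and 10.70 in DMSO to 10.26, 10.07, 10.43 and 10.20 in GSK, with no overlap. Its call was lost without DMSO library 2 (adjusted p = 0.056) or GSK library 4 (0.059). Rps13-ps2, identical to Rps13, changed by 0.22 (adjusted p = 0.50).

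Other copies were widely spread without following the groups. Rps12-ps4, at 99.5% identity to Rps12 and across an exon of Nphs1 on the opposite strand, was at 4.49, 12.96 and 9.75 in the DMSO day 8 libraries and at 4.20, 8.28 and 8.08 in the GSK day 8 libraries. On day 14 it was at 10.59, 4.10, 7.23 and 3.95 in DMSO and at 4.03, 6.81, 3.55 and 3.52 in GSK. Rps12-ps3, whose words all occur in Rps12, was at 10.3 in GSK day 14 library 4, at 6.61 in GSK day 14 library 3, at 5.19 in DMSO day 8 library 1 and at 2.43 to 3.41 in the other 11. Neither passed on day 14 (changes -1.99 and 2.65, adjusted p = 0.46 and 0.17, limma).

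In the Rpl10 family the parent was the variable row. Rpl10, whose protein joins the large subunit late in its assembly, was at 5.66 in DMSO day 8 library 2 and at 5.81 and 5.57 in DMSO day 14 libraries 2 and 3. In the other 11 libraries it was at 10.1 to 12.7. Rpl10-ps3 was at 10.6 to 13.0 in all 14, with 12.7, 12.3 and 13.0 in the 3 libraries in which Rpl10 was low. The listed copies' share of the family was 98.9% to 99.4% there and 20.4% to 83.7% elsewhere, while the family sum stayed between 12.2 and 13.1. The day 14 changes of 3.72 for Rpl10 and -1.09 for Rpl10-ps3 did not pass (adjusted p = 0.091 and 0.063, limma).

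Summing the unlogged values of a parent and all its listed copies, kept or not, gives 1 value for each of the 34 families. Since the transformation behind the deposited values is not known, unlogged values may not add up as reads would, and how far the sums depend on the division of reads within a family was not tested. On day 14, 9 family sums passed the limma test, 4 higher and 5 lower, beside 10.7% of all rows when families replace their members. Higher were Rps23 by 1.37 (SE 0.25), Rpl39 by 1.06 (SE 0.26), Rpl17 by 0.92 (SE 0.26) and Rpl31 by 0.78 (SE 0.24). Lower were Rpsa (-0.80), Rpl38 (-0.60), Rps26 (-0.59), Rps27a (-0.57), whose protein is made as a fusion with ubiquitin, and Rpl35a (-0.54). Of the 29 copies that passed, 10 belong to a family whose sum passed and 19 to one whose sum did not. Equal rows are counted separately here, the Rpl35a copies among the 10 and the Rps12 copies among the 19. The 19 also include Rps2-ps6, which was kept through the GSK day 14 group alone. After quantile normalisation the family sums that passed were 6 higher and 2 lower. Omission of day 14 library 2 of DMSO or 4 of GSK left 1, as did a term for the ribosomal RNA split. Omission of day 14 library 4 of DMSO or 1 of GSK left 4, as did the fit among the libraries with AY036118 high.

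On day 8, 3 copies passed: Rpl17-ps3 and Rps6-ps4 were higher in GSK, and Rps2-ps10 was lower. Of all kept genes 0.194% passed. Rpl17-ps3 was at 4.57, 4.17 and 5.25 in DMSO and at 7.73, 7.17 and 7.04 in GSK, a rise of 2.65 (SE 0.48, 6.27-fold). Rps6-ps4 was at 4.44, 3.92 and 5.12 in DMSO and at 5.48, 6.44 and 6.07 in GSK, a rise of 1.50 (SE 0.27, 2.83-fold). Rps2-ps10 was at 6.52, 6.76 and 6.59 in DMSO and at 5.84, 5.30 and 5.51 in GSK, and fell by 1.07 (SE 0.19). None of the 3 overlapped between the groups, and each had an adjusted p of 0.036 in limma.

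All 3 day 8 calls were lost, at adjusted p-values of 0.0531 to 0.154, on leaving out DMSO day 8 library 1, GSK day 8 library 2 or 3, DMSO day 14 library 4 or any GSK day 14 library. The share of all kept genes that passed was counted in the main fit alone, so the counts that follow are not set against it. On the other side, 12 copies passed with GSK day 8 library 1 left out, 6 with DMSO day 14 library 2 and 5 with DMSO day 14 library 1 left out. The count was 17 without both GSK day 8 library 1 and DMSO day 14 library 2, a setting added after the data were seen, 14 among the libraries with AY036118 high (1 DMSO and 2 GSK on day 8), and 0 with the 4T1 epithelium covariate. No family sum passed in limma, against 0.169% of all rows. Of the 34, 6 had an unadjusted p below 0.05 in limma, and the share of all rows below it was not counted. The median change over the copies was 0.07, and 0.55 over the 27 with no word of their own (0.65 over their 17 distinct profiles), against 0.02 over all kept genes.

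Between the days, the DMSO groups held no copy that passed in limma, beside 0.824% of all kept genes. An unadjusted p below 0.05 in limma was found for 19 of the 75, and the share of all kept genes below it was not counted. The share of all kept genes that passed was counted in the main fit alone. The number of copies that passed became 5 when GSK day 8 library 1 was left out. It became 1 when DMSO library 1 of day 8 or library 1, 2 or 4 of day 14 was left out. In the GSK groups 16 copies passed from day 8 to day 14, 7 higher and 9 lower, beside 7.01% of all kept genes, or 9 with equal rows counted once. The 7 were Rps6-ps4 (4.49, SE 0.25), Rpl30-ps10 (2.34), Rpl39-ps (2.22), Rpl17-ps8 (1.35), Rps23-ps1 (1.25), Rpl36a-ps1 (0.64) and Rps2-ps6 (4.78). Rps2-ps6 was kept through the GSK day 14 group alone, so its rise is built into its being kept. The 9 were the 8 Rps12 copies of the X cluster (-1.50 and -1.48) and Rpsa-ps12 (-1.27). This comparison shares the GSK day 14 libraries with the day 14 comparison. The calls of Rps6-ps4, Rpl30-ps10 and Rps12-ps11 with its 4 equals held on leaving out any library, and each of the others was lost without GSK day 8 library 1. All others but Rpl39-ps and Rps23-ps1 were lost without GSK day 8 library 2. No further omission ended the calls of Rps12-ps17 and its 2 equals. GSK day 14 library 1 or 4 also ended the calls of Rpl39-ps, Rps23-ps1, Rps2-ps6, Rpl17-ps8, Rpl36a-ps1 and Rpsa-ps12, library 2 those of the last 3, and library 3 those of Rps2-ps6, Rpl17-ps8 and Rpl36a-ps1. The number that passed was 7 with GSK day 8 library 1 left out, 9 with GSK day 8 library 2 left out and 10 with GSK day 14 library 4 left out. It was 1, Rps6-ps4, with the 4T1 epithelium covariate, whose values were 5.58 to 6.93 in the GSK day 8 libraries and 4.79 to 4.94 in the GSK day 14 libraries.

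The difference between the day 14 and the day 8 effect of GSK was tested in the same model. Rps6-ps4 was the single gene of all 11886 that passed, which is 0.00841% of them, with an effect larger by 5.09 (SE 0.36, adjusted p = 2e-06, limma) on day 14. It passed in each of 27 other settings, with values of 4.36 to 5.38. With GSK day 14 library 1 left out 10 copies passed, and with GSK day 14 library 2 left out 3 passed. No share of all kept genes was counted in those fits. Under the 14 omissions of a library the day 14 change of Rps6-ps4 stayed between 6.53 and 6.69.

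Among all kept genes, those most like Rps6-ps4 over the 14 libraries by Pearson correlation were Gm4366 (0.942), Olfm1 (0.933), Gm9762 (0.932), Gm26992 (0.931) and Ivns1abp (0.923). All have smaller ranges than Rps6-ps4. Olfm1, which encodes a secreted olfactomedin protein, was at 9.09 to 9.41 in the DMSO day 14 libraries and at 9.91 to 10.03 in the GSK day 14 libraries. Gm4366 was at 2.77 to 3.16 outside the GSK day 14 group and at 3.53 to 4.07 in it. It reached the minimum in that group alone, so a pattern like that of Rps6-ps4 is partly built into its being kept.

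Of 84 kept genes for cytosolic ribosomal proteins, 5 were higher and 20 lower on day 14, with a median change of -0.08. Of 294 other kept pseudogenes, 42 were higher and 11 lower, with a median of 0.11 and a median size of 0.29. Among the 75 ribosomal protein copies the median size of a change was 0.85, or 0.54 over the 65 distinct profiles. It was 0.48 for the 48 with words of their own and 1.45 for the 27 with none. The latter value is that of the equal Rps12 copies around Rps12-ps11, and it was also the median over the 17 distinct profiles of those 27, in which these copies count once.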

How the data were processed

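RNA of 14 libraries was analysed from 1 table of log2 values that the authors deposited, with 24556 Ensembl identifiers. Tools named in the submitters' processing notes are RSEM 1.2.29, Bowtie2 and DESeq2 1.12.4, and builds are mm10 and GRCh38. The transformation is not given in the sources used here. Some transformations shrink the changes of low genes, and whether this one does was not tested. Symbols, positions and transcripts came from GENCODE M21 on GRCm38, which matched 24470 identifiers and not 86. Copies were aligned to the parent's principal transcript with match 1, mismatch -2, gap opening -5 and gap extension -1. All 11886 kept genes entered 1 limma 3.58.1 model (R 4.3.3) of the 4 groups, moderated with a trend on mean level, with a test of both directions, with Benjamini-Hochberg adjustment over them and a threshold of 0.05, and was tested on simulated data. Family sums were made from unlogged values of the parent and all its listed copies and fitted with all other genes. SE is limma's standard error. Same-numbered libraries did not deviate together (correlations of -0.16 to 0.17), so replicate numbers were not taken as pairs. The members, lists and rules were chosen with earlier results of these data known. The rule for named genes took the 10 largest called changes in each direction of each comparison, the 10 highest copies, families of 3 or more, the 5 widest ranges against the parent and the 5 genes most like Rps6-ps4.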

Additional observations from a re-analysis of the deposited data

Results flagged for a closer look

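The effect of GSK pre-treatment on Rps6-ps4 differed between the days by 5.09 on the log2 scale, by the test of that difference.

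In the 4 libraries of a day 14 group, a single library can lie far from the other 3. Dixon's test at its 95% critical value was applied to 39 distinct profiles of named copies in both groups, and 9 of 78 groups held such a library. The nominal rate of the test is about 1 in 20. Many of the copies were named by their changes or ranges in these same data, and copies of a family share sequence. The count therefore cannot be set against that rate, and the rate over all kept genes was not computed. Rpl17-ps3 was at 6.41 in DMSO library 1 with the other 3 at 4.00 to 4.28. Rpsa-ps2 was low in the same library, at 4.58. Rps12-ps11 was at 5.88 in DMSO library 2, within a narrow range of 5.88 to 5.98, and at 5.54 in GSK library 1, above the other 3 at 4.13 to 4.17. In GSK library 2, Rps12-ps4 was at 6.81 and Rpl36-ps3 at 6.54. In GSK library 3, Rps12-ps24 was high, at 4.60. In GSK library 4, Rpsa-ps12 was low at 11.1 and Rpl17-ps8 high at 11.1. Groups of 3 were not tested.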

How the results depend on the processing

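Depth is unknown and limits what can be said of low rows. Rows of equal sequence are not separate results. Beside the main fit, 28 settings were run, and the cause of each shift below was not tested. The share of all kept genes that passed was counted in the main fit alone. Over 49 calls of single copies, 1084 of 1367 repeats gave the same call, 282 lost it and 1 reversed: Rpsa-ps12 between the days in GSK was 0.22 with the 4T1 epithelium covariate.

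Counts of copies that passed on day 8 (3), on day 14 (29), between the days in DMSO (0) and in GSK (16), and for the difference between days (1), and family sums on day 8 (0) and day 14 (9), shifted by over 1.5 times as follows. Without a filter on low values they were 0 on day 8, 17 on day 14, 10 in GSK and 4 family sums on day 14. With library quality weights they were 16 on day 8, 33 in GSK and 1 family sum on day 8. With the replicate block they were 0 on day 8, 1 in DMSO and 4 family sums on day 14. The copies that passed on day 14 were 23 in that fit, a shift of less than 1.5 times. The replicate numbers share no stated origin. Fitting each pair of groups alone gave 1 on day 8, and no value for the difference between days, which needs all 4 groups. A term for the ribosomal RNA split gave 1 on day 8, 18 on day 14 and 1 family sum on day 14. Among libraries with AY036118 high they were 14 on day 8, 9 in DMSO, 8 for the difference, and 1 and 4 family sums on day 8 and day 14. With the 4T1 epithelium covariate they were 0 on day 8, 16 on day 14, 1 in GSK and 2 family sums on day 14. Chosen after the data were seen, equal rows counted once gave 19 on day 14 and 9 in GSK, and leaving out both GSK day 8 library 1 and DMSO day 14 library 2 gave 17 on day 8, 10 in DMSO, 3 in GSK, 3 for the difference and 1 family sum on day 8. Leaving out each library in turn gave 0 to 12 on day 8, 14 to 33 on day 14, 0 to 5 in DMSO, 7 to 20 in GSK, 1 to 10 for the difference, 0 to 0 family sums on day 8 and 1 to 10 on day 14. A minimum of 50, pseudocounts of 0.1 and 10, quantile normalisation, centring and no trend moved none of these counts by over 1.5 times.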
